A study of Mus musculus with 8 samples.

Results

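A set of 10 predicted mouse genes that carry satellite-like sequence, Gm10800, Gm10801, Gm26870, Gm10715, Gm10717, Gm10718, Gm10720, Gm10721, Gm11168 and Gm17535, were followed in the RNA of bone marrow B cells. They are 10 of the 54532 Ensembl genes in the count table and were found there by symbol. The set was chosen by the read counts of Gm10800, which was higher in all libraries from ovariectomized mice than in all libraries from sham-operated mice, so the difference between the groups is described here for the members and is not tested. B cells had been isolated from bone marrow with magnetic beads (MACS), and RNA-seq was performed on 3 libraries from mice that received ovariectomy (OVX), a surgical model of estrogen deficiency, and on 3 from mice that received sham surgery (Sham). Both groups are labelled only by surgery and cell type. The methods give an age at surgery, in young adult female mice, for other experiments and do not tie it to these libraries. Their strain, the time after surgery and whether each library came from a single mouse are not given in the sources used here. Each library held between 23838775 and 33136701 counted reads. A list of 12 B cell genes, among them Cd79a, Pax5 and Vpreb3, was counted in every library and took between 1.57% and 1.76% of its reads.

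Satellite DNA consists of short units repeated in long tandem arrays. In the mouse, the major satellite fills the chromatin beside the centromere, where it is packed as constitutive heterochromatin under methyl marks on histones and on the DNA itself, and its transcripts are normally scarce. The predicted genes described here are gene models that automatic annotation placed on such repeats, and no function is known for them. Because copies of a repeat resemble each other, a short read can match several of them, and the number counted on any single model depends on how such reads were treated. This treatment is not given in the sources used here, and the values of all members are therefore uncertain. None of the 10 genes was matched in the RefSeq tables used, so neither sequences nor positions are shown.

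Of the 10 members, only Gm10800 (ENSMUSG00000075014) was counted in more than a single read. It held 119 of the 120 reads counted on all members, or 99.2%. Gm26870 (ENSMUSG00000097312) had 1 read, in OVX replicate 3, which is below the 3 reads that a count of 0 allows. Gm10801 (ENSMUSG00000075015), whose identifier is next to that of Gm10800, had 0 reads in all 6 libraries. The other members at 0 in every library were Gm10715, Gm10717, Gm10718, Gm10720, Gm10721, Gm11168 and Gm17535. A count of 0 allows up to 3 reads, which is a level of up to 0.126 CPM (counts scaled to the size of the library) in the shallowest library and 0.0905 CPM in the deepest, and 0.0184 CPM over the 163037802 reads of all libraries. These limits cover counting error only. Counts of 0 were common among predicted genes of any kind, as 68.9% of the 26732 with a Gm number had no read in any library. That share is not one of satellite-like models alone. RNA from the 8 members at 0 was thus not detectable as counted here, and no change with OVX can be described for them or for Gm26870.

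In the Sham group, Gm10800 reads numbered 7 in replicate 1, 3 in replicate 2 and 8 in replicate 3. In the OVX group they numbered 42 in replicate 1, 36 in replicate 2 and 23 in replicate 3. The groups did not overlap. The OVX libraries together held 101 reads of Gm10800 and the Sham libraries 18, at 86626647 and 76411155 reads in all. After scaling by the library total with edgeR's TMM factors, the level was 1.71, 1.27 and 0.696 CPM in OVX replicates 1, 2 and 3. In Sham it was 0.295, 0.106 and 0.322 CPM in replicates 1, 2 and 3. The lowest OVX library, replicate 3, was thus 2.16 times as high as the highest Sham library, replicate 3. The mean was 1.22 ± 0.508 CPM in OVX and 0.241 ± 0.118 CPM in Sham (SD, n = 3 per group).

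**Figure D1:**
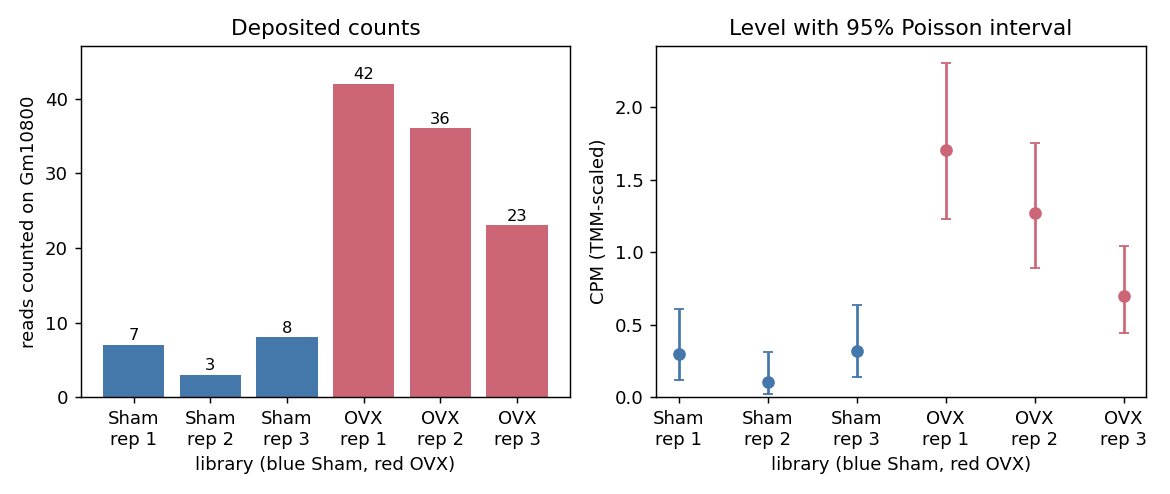
Reads of Gm10800 in each library (left, bars) and its level in CPM with the 95% exact Poisson interval of the count (right, points and whiskers), Sham in blue and OVX in red. The 3 OVX libraries hold 23 to 42 reads and the 3 Sham libraries 3 to 8, while the interval of OVX replicate 3 reaches into those of Sham replicates 1 and 3.

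At these counts the error of a single library was large. The 95% exact Poisson interval, which covers counting error only, was 1.23 to 2.31 CPM in OVX replicate 1, 0.889 to 1.76 CPM in OVX replicate 2 and 0.441 to 1.04 CPM in OVX replicate 3. The intervals of OVX replicates 1 and 3 did not overlap, so the OVX libraries varied among themselves by more than these intervals. In Sham the intervals were 0.119 to 0.608 CPM for replicate 1, 0.0218 to 0.309 CPM for replicate 2 and 0.139 to 0.634 CPM for replicate 3. All 3 Sham intervals overlapped, and that of OVX replicate 3 overlapped those of Sham replicates 1 and 3. From the highest level down, the order of the libraries was OVX replicate 1, OVX replicate 2, OVX replicate 3, Sham replicate 3, Sham replicate 1 and Sham replicate 2, and no neighbours in this order were apart beyond their intervals.

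In the fit of all 15305 tested genes, the log2 fold change of Gm10800 was 2.34, which is given as a description. Neither a p-value nor a standard error is given, because both come from the test of the difference that the gene was picked for. Gm10800 was the 1 member that passed the filter on low counts, and it passed through its OVX libraries. It had the highest fitted log2 fold change of the 1756 predicted genes tested. Of all tested genes, Capn11 and Marco, picked out here after their values were seen, were fitted higher, at 3.77 (standard error 1.53) and 2.73 (standard error 1.36), and for both of them the groups overlapped. Complete separation, with the lowest OVX library above the highest Sham library, was seen for 1 of the 10 members, beside 4.33% of all tested genes and 4.1% of the tested predicted genes. Because Gm10800 was picked for this separation, nothing is read from the count or from its rank in log2 fold change. No gene in the table reached the call rule of at least a 1.6-fold change together with a Benjamini-Hochberg adjusted p-value under 0.05 in the quasi-likelihood test of edgeR, so that 0% of 15305 were called, whereas 225 genes were higher and 349 lower at an unadjusted p-value under 0.05. DESeq2 called 0 genes as well, with 204 higher and 551 lower at an unadjusted p-value under 0.05.

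**Figure D2:**
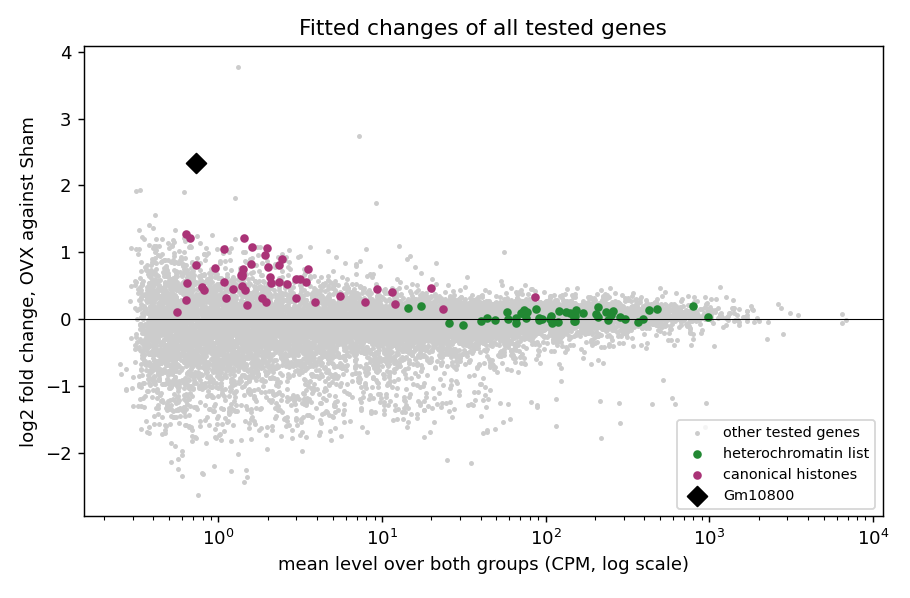
Log2 fold change of OVX against Sham for each tested gene (vertical axis) by its mean level in CPM (horizontal axis, logarithmic), with Gm10800 as a black diamond, 49 heterochromatin genes in green and 48 canonical histone genes in purple. Gm10800 stands at 2.34 among genes of low level, the heterochromatin genes lie between -0.08 and 0.20, and the histone genes lie between 0.12 and 1.27.

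The genes whose levels across the 6 libraries were most like the summed level of the members were Zbtb49, a zinc finger gene, Tnpo1, a nuclear import receptor, Rad54l2, a helicase, Map3k7, the kinase TAK1, and the predicted gene Gm12355. Their Pearson correlations with the members, on log2(CPM + 0.1) over 6 libraries, lay between 0.979 and 0.989. These are the highest among the tested genes that are not members, and the summed level is nearly all Gm10800. A search over so many genes with only 6 libraries can return values this high without any link, so they are given as a description. A correlation takes no account of size, and the fitted log2 fold change was 0.18 for Zbtb49, 0.12 for Tnpo1, 0.09 for Rad54l2, 0.05 for Map3k7 and 0.56 for Gm12355, against 2.34 for Gm10800.

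A list of genes linked to heterochromatin was examined next. Many of them set or read its marks. It also holds demethylases such as Kdm4a and Kdm4b, the histone variant genes H3f3a and H3f3b, and the heat shock factor Hsf1. Its genes thus do not all act in the same direction. All 49 genes of the list that were found in the table passed the filter. None was called in either direction by edgeR or DESeq2, and 0 were at an unadjusted p-value under 0.05 with either tool. Of the 49, 37 were above and 12 below a log2 fold change of 0, with a median of 0.04, against -0.01 over all tested genes. When libraries were scaled on the B cell genes instead, the median of all genes was -0.08 and 21 of the 49 were above 0. Of these 12 B cell genes, 9 were themselves above 0 before this scaling, with a median of 0.05. With TMM scaling and without Sham replicate 2, 25 of the 49 were above 0. The histone methyltransferases Suv39h1 and Suv39h2, which set the heterochromatin mark on histone H3, had log2 fold changes of 0.10 (standard error 0.11) and 0.16 (standard error 0.13). Those of Kmt5b and Kmt5c, which methylate histone H4, were 0.05 (standard error 0.06) and -0.06 (standard error 0.10). For Cbx1, Cbx3 and Cbx5, the HP1 proteins that bind the mark on histone H3, the values were 0.18, 0.09 and 0.07 (standard errors 0.10, 0.10 and 0.10). The maintenance DNA methyltransferase Dnmt1 and its partner Uhrf1 had 0.01 (standard error 0.11) and 0.15 (standard error 0.14).

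The de novo DNA methyltransferase Dnmt3b had the highest log2 fold change of the list, 0.20 (standard error 0.11, quasi-likelihood test of edgeR, adjusted p = 0.811), with 18.5 ± 0.983 CPM in OVX and 16.1 ± 0.530 CPM in Sham (SD, n = 3 per group). The histone methyltransferase Setdb2 had the lowest, -0.08 (standard error 0.13, edgeR, adjusted p = 0.877). The groups were separated, with OVX higher, for 4 of the 49 genes, or 8.16%, namely Dnmt3a, Dnmt3b, Suv39h2 and the demethylase Kdm4b, beside the 4.33% of all tested genes. Among 20 genes of nuclear RNA surveillance, which include the exosome subunits and the helicase Mtrex and trim or degrade RNA in the nucleus, none was called, and 0 were at an unadjusted p-value under 0.05, with edgeR or DESeq2. Their median log2 fold change was -0.02, from -0.15 for Exosc1 to 0.24 for Exosc3.

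Of 14 other gene lists, the summed level did not overlap between OVX and Sham, in either direction, for 1, the canonical histones. Among single tested genes, 4.33% were higher and 4.12% lower in every OVX library, so nothing is read from 1 list of 14. Canonical histones package new DNA, and their transcripts mostly end without a poly(A) tail. The histone genes summed to 295, 270 and 280 CPM in OVX replicates 1, 2 and 3. In Sham they summed to 254, 159 and 222 CPM in replicates 1, 2 and 3. As for Gm10800, OVX replicate 1 was highest and Sham replicate 2 lowest, but the order of the libraries between them differed from that of Gm10800. All 48 tested histone genes had a log2 fold change above 0, with a median of 0.55, from 0.12 for Hist1h2an to 1.27 for Hist1h2bp. None of the 48 was called by edgeR, and 7 were higher at an unadjusted p-value under 0.05, beside 225 of 15305 among all genes. DESeq2 was run without the filter, on all histone genes with a read and not only these 48. It called none of them and had 11 higher at an unadjusted p-value under 0.05, beside 204 of 27412 among all genes. The groups were separated, with OVX higher, for 15 of the 48, beside 4.33% of all tested genes. The median was 0.35 without Sham replicate 2 and 0.90 without Sham replicate 1, and with scaling on the B cell genes the lowest OVX sum was 0.985 of the highest Sham sum, so that the groups then overlapped. Many histone genes resemble each other closely, and reads could be split among them as among satellite copies. Their part in the difference of Gm10800 was not tested.

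**Figure D3:**
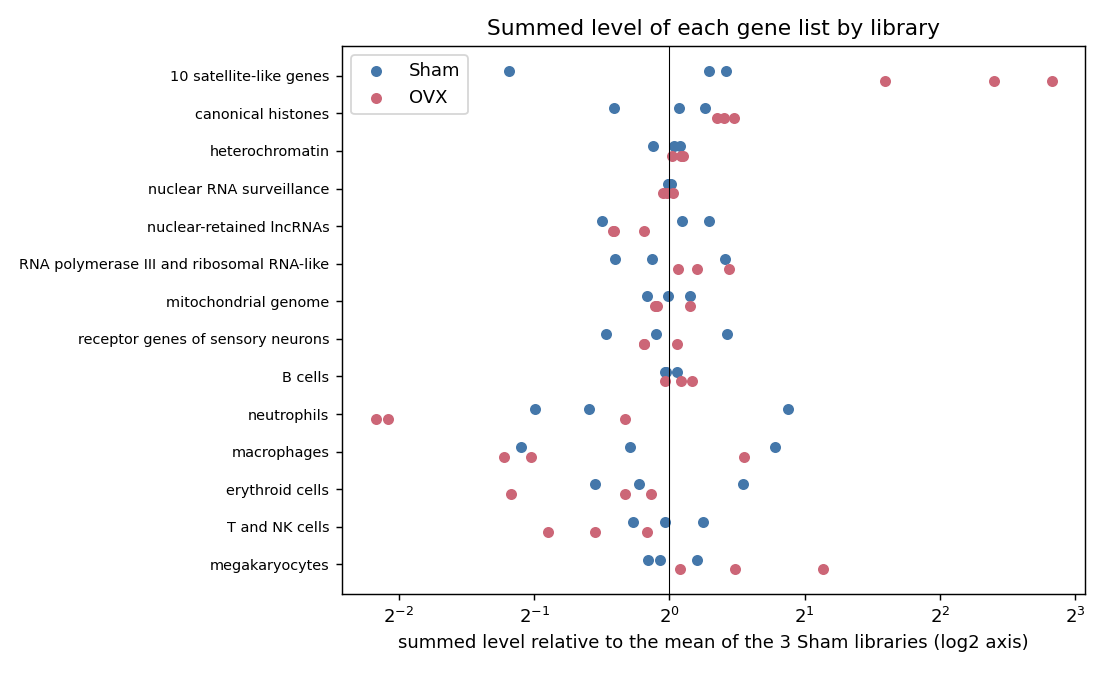
Summed level of each gene list in each library, as a multiple of the mean of the 3 Sham libraries (log2 axis), Sham in blue and OVX in red, 1 point per library. The 10 satellite-like genes, which rest on 120 reads, and the canonical histones keep their OVX points to the right of all Sham points, and the points of the other lists overlap.

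The sums of other lists are given beside those of the members, and their part in the difference of Gm10800 was not tested. Of 1463 odorant, pheromone and taste receptor genes, which B cells are not known to use, 91.2% had no read, and their sum was 17.3 to 20.5 CPM in OVX and 14.3 to 26.4 CPM in Sham. Nuclear-retained long noncoding RNAs, with Malat1 and Neat1, summed to 1287 to 1510 CPM in OVX and 1221 to 2107 CPM in Sham. A list of RNA polymerase III and ribosomal RNA-like genes, with 7 of 15 identifiers at 0, summed to 703 to 914 CPM in OVX and 508 to 893 CPM in Sham. Most of this sum was the protein-coding gene Lars2, with a mean of 625 CPM in OVX and 535 CPM in Sham. The polymerase III RNA Rn7sk had a mean of 31.6 CPM in OVX and 26.8 CPM in Sham. Mitochondrial transcripts summed to 12645 to 15130 CPM in OVX and 12173 to 15153 CPM in Sham. The 10 neutrophil markers summed to 1071 to 3835 CPM in OVX and 2421 to 8845 CPM in Sham, highest in Sham replicate 3. The 8 macrophage markers summed to 475 to 1626 CPM in OVX and 518 to 1907 CPM in Sham, highest in Sham replicate 2. Erythroid markers summed to 137 to 279 CPM in OVX and 210 to 449 CPM in Sham, those of T and NK cells to 27.9 to 46.3 and 43.1 to 61.9 CPM, and those of megakaryocytes to 147 to 306 and 125 to 160 CPM.

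The fitted values of the markers of other cell types lay on both sides of 0. Of the 10 neutrophil markers 0 had a log2 fold change above 0 (median -1.26, or -0.51 without Sham replicate 3). Of the 8 erythroid markers also 0 were above 0 (median -0.74), or 2 without Sham replicate 2 (median -0.37). Of the 8 markers of T and NK cells 1 was above 0 (median -1.36), namely Klrb1c at 0.13, and 0 without Sham replicate 3 (median -0.76). Of the 8 macrophage markers 0 were above 0 (median -0.34), but without Sham replicate 2 it was 7 of 8 (median 0.32). All 5 tested megakaryocyte markers were above 0 (median 0.63), and without OVX replicate 3 the median was 0.21. Ppbp, a platelet chemokine, was the highest at 1.01 (standard error 0.31, edgeR, adjusted p = 0.811), with its OVX libraries above its Sham libraries. None of these markers was called by edgeR or DESeq2. At an unadjusted p-value under 0.05, edgeR had 3 erythroid markers and 1 of T and NK cells lower and 1 of megakaryocytes higher. DESeq2 had 5, 3 and 3, in the same order and directions. Among all genes at this threshold, edgeR had 2.28% of 15305 lower and 1.47% higher. DESeq2 had 551 lower and 204 higher of 27412. In such bulk samples fewer cells of a type and less RNA per cell cannot be told apart.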

How the data were processed

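RNA was extracted from MACS-sorted bone marrow B cells and sequenced in 3 OVX and 3 Sham libraries. The file deposited by the authors lists the count of reads on each Ensembl gene, not normalized, with 1 column per library. The submitters' processing notes name the build mm10 and the tools CASAVA and Bowtie 0.12.2, with no role, and the counting tool, the annotation, the strand setting and the treatment of reads with several matches are not given in the sources used here. The HIF-1α ChIP-seq sample and its input were not used here.

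Symbols were matched to 54409 of 54532 identifiers. Tests were run on these counts with edgeR 4.0.16 in R 4.3.3 (filterByExpr by group, TMM, quasi-likelihood test, Benjamini-Hochberg adjustment), and DESeq2 1.42.0 was an alternative. The standard error is the log2 fold change divided by the square root of F. P-values measure the spread between these samples, which may be technical. Every pair of libraries differed by more than sampling noise. The scripts were tested on simulated data. The members and gene lists were chosen with earlier results of these data known. Named genes are the members, the highest and lowest of a list, heterochromatin genes chosen by role or for separating the groups, and the 5 genes most like the members. The 3 reads of a count of 0 and the Poisson intervals cover counting error only.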

Additional observations from a re-analysis of the deposited data

How the results depend on the processing

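The direction of the difference of Gm10800 is fixed by how the gene was chosen, and its values under the alternatives are a description. Its log2 fold change of 2.34 was 2.32 by library size, 2.36 with DESeq2, 2.28 with scaling on the B cell genes, 2.33 without the filter and 2.31 with the replicate block, and it ran from 1.96 without Sham replicate 2 to 2.62 without OVX replicate 3. The summed level of the members, a log2 ratio of means of 2.36, ran from 2.0 to 2.63 when a library was left out. Without Gm10800 the members held 1 read, so no sum could be compared, and no fold change could be given for the other members. No gene of the whole table, and none of the heterochromatin genes, was called in any alternative. The number of genes with an unadjusted p-value under 0.05 was 574, and it was 1269 without the filter and 206 with the replicate block, and 233 to 2698 when a library was left out, the highest without Sham replicate 1. The lowest adjusted p-value over the fits that left out a library was 0.273. The causes were not tested. Libraries with the same replicate number did not deviate together from their group means, with correlations across genes, which are not independent, of -0.417 for number 1, -0.194 for number 2 and -0.286 for number 3, and were not taken as pairs. Depth limits the members most, with 3 to 42 reads per library for Gm10800.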
